A study of Mus musculus with 6 samples.

Results

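The chemokine system of the mouse was followed through 6 cultures of pluripotent cells, as 48 genes of the 17015 genes that the arrays' probes could be named for. A gene belonged to it where its RefSeq symbol was Ccl, Cxcl, Ccr or Cxcr followed by a number, or was Cx3cl1 or Xcl1. The scanner files carry no gene name column, so the name pattern was applied to the RefSeq symbol of each probe's transcript. This gave 32 ligands and 16 receptors, and 2 further symbols that fit the pattern, Ccl26 and Cxcl11, had no named probe. Levels were not used to choose the genes.

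The study compared mouse embryonic stem (mES) cells labelled E3.5, epiblast stem cells (EpiSCs) from E3.5 embryos and EpiSCs from E5.5 embryos. The E5.5 EpiSCs thus differ from the mES cells in embryo stage as well as in cell type. All cells were of strain 129 and were labelled as grown in Knockout DMEM with KSR, a serum replacement. Each was measured untreated and after SB431542 at 20 µM, given daily for 4 days. SB431542 inhibits the receptor kinases that answer to TGF-beta, Activin and Nodal, signals that hold EpiSCs in the pluripotent state. Each of the 6 groups is 1 one-colour Agilent array, so no group has a replicate of its own. Labels name no feeder cells, and do not say whether a group is a clone or how many embryos it came from.

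Chemokines are small secreted proteins that direct the movement of cells, and each acts through receptors of the G protein-coupled family. Most are made by stromal, epithelial and immune cells during inflammation, under the control of NF-kB and interferon signals, and draw in blood cells. Cxcl12 and its receptor Cxcr4 are an exception, since they guide cell migration throughout the embryo, including in the forming nervous system and germline.

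The bases just before the start of 4 of these genes are shown because the 4 differed at least 2-fold in the same direction with SB431542 in both EpiSC lines, on arrays that the lines do not share. Of 7 such genes, the other 3 (Ccl5, Ccr10 and Cxcl17) had no window in the promoter reference and are named only. The sequences are the 250 bases before each RefSeq start, on build GRCm38.p6, read 5′ to 3′ on the gene's strand. Capitals mark matches to any of 5 motifs searched on both strands. Cxcr4 lies on the minus strand, with the window at chr1:128592300-128592549. Cx3cl1 lies on the plus strand, at chr8:94771930-94772179. Cxcl10 lies on the minus strand, at chr5:92348890-92349139. Ccl20 lies on the plus strand, at chr1:83116516-83116765.
Cxcr4: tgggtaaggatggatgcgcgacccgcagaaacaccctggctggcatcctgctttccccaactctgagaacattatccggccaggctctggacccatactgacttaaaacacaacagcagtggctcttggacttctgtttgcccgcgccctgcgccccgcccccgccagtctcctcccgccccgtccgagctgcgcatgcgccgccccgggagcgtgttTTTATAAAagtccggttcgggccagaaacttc
Cx3cl1: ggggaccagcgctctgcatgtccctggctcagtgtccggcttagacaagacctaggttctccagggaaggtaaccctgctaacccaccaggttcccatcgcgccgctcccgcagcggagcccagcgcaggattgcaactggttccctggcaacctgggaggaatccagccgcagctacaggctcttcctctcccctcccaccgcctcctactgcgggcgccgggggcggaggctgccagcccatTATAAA
Cxcl10: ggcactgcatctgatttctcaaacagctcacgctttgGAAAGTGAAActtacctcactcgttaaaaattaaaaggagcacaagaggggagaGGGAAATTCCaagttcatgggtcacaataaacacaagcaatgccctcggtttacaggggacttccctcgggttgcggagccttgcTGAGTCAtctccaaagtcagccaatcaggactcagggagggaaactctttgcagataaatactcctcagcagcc
Ccl20: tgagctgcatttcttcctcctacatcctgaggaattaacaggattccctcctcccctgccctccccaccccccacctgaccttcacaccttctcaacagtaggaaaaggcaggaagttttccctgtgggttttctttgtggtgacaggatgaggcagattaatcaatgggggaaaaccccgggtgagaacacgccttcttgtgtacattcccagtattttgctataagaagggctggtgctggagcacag

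The motifs were an interferon response element (GAAA and GAAA with any 2 bases between), an NF-kB site (GGGA and TTCC with any 2 bases between), a TATA box (TATAAA), an AP-1 site (TGANTCA) and a palindromic SMAD site (GTCTAGAC). Cxcl10 held the interferon element at 213 bases before its start, the NF-kB site at 159 and the AP-1 site at 74. Of 32851 mouse promoter windows of the same length, 2.98% held the interferon element, 1.21% the NF-kB site and 6.75% the AP-1 site. Cxcr4 held a TATA box on the plus orientation 30 bases before its start, and overlapping bases match the motif on the other strand at 32. Cx3cl1 held a TATA box whose first base lies 6 bases before the annotated start. TATA boxes were found in 12.4% of all windows, and in 10 of the 37 windows that RefSeq gave for 35 of the chemokine genes. The NF-kB site was in 6 of those 37 windows (Ccl1, Ccr3, Cxcl1, Cxcl10, Cxcl2 and Cxcl3), the interferon element in 3, the AP-1 site in 4 and the SMAD site in 0, against 0.167% of all windows. Ccl20 held none of these letter runs in this window. The matches describe the letters only.

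The level of a gene is log2 of its processed signal relative to the 75th percentile of its array, so a gene at 0 is as bright as that percentile. Levels are compared between arrays for the same probe and not between genes. The arrays were alike in quality, with 82.6% to 85.7% of gene spots well above background, 0 of 43379 saturated and repeat spots with a coefficient of variation of 5.4% to 7.8%. The 75th percentile was an intensity of 1194 to 1462 on 5 arrays and 1803 on the E3.5 EpiSC + SB431542 array. The mES arrays lay with the E5.5 EpiSC arrays on slide 1, whereas each E3.5 EpiSC array had a slide of its own, so slide and group cannot be told apart wherever an E3.5 EpiSC array is compared. The labels held against marker genes: the summed linear level of 10 pluripotency markers (in multiples of the 75th percentile) was 180 and 186 in mES cells, 85.7 and 116 in untreated E3.5 and E5.5 EpiSCs, and 7.34 and 7.55 in their treated counterparts. That of 10 neural progenitor markers was 2.57 to 12.6 on the untreated and treated mES and untreated EpiSC arrays and 183 and 141 in treated E3.5 and E5.5 EpiSCs. Since these are bulk samples, fewer cells of a type and less RNA per cell cannot be told apart.

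Of the 48 genes, 40 stood well above background on 1 or more arrays (27 ligands and 13 receptors), and 27 were so on all 6. The ligands Ccl22, Cxcl13, Cxcl2, Cxcl3 and Xcl1 and the receptors Ccr1, Ccr2 and Cxcr1 were well above background on none. Any comparison below counts only the 40, a choice that favours genes high on some array, so the counts describe and do not test. A gene was called higher or lower in a pair of arrays where it differed at least 2-fold and was well above background on the brighter array. By this rule 31 of the 40 (77.5%) differed in at least 1 of 6 pairs, against 50.1% of all 16153 genes tested. Calls use the measured signal of the dimmer array, so where that array was not well above background the bound can be under 2-fold. This was so for Ccr10 in the E3.5 SB431542 pair (at least 1.98-fold), Cxcl9 in E3.5 EpiSCs against mES cells (at least 1.08-fold) and Cxcl15 in E5.5 against E3.5 EpiSCs (at least 1.88-fold). The other 9, Ccl28, Ccl4, Ccl9, Ccr3, Ccr6, Ccr8, Ccr9, Cxcr3 and Cxcr6, had levels between -7.28 and -2.56, and each varied by 0.56 to 1.47 over the 6 arrays.

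**Figure D1:**
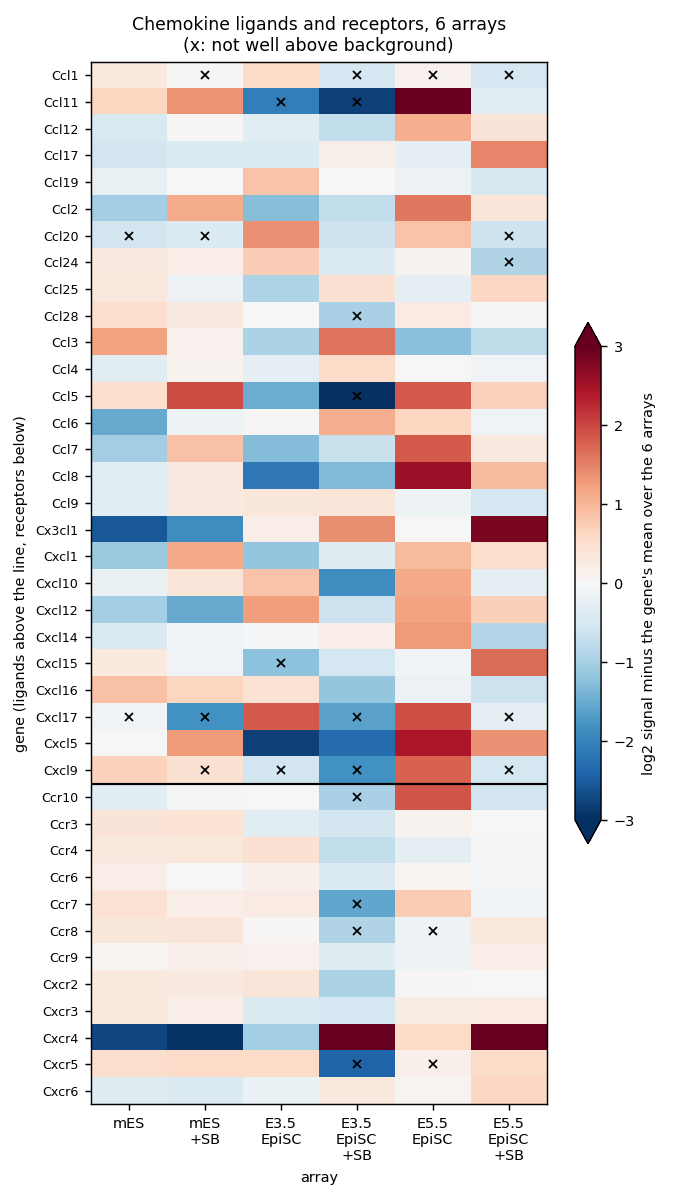
Colour shows each gene's log2 signal minus its own mean over the 6 arrays, for chemokine genes well above background on 1 or more arrays (rows, ligands above the black line and receptors below) on the 6 arrays (columns), with the colour scale ending at 3 either side; a cross marks an array where the gene was not well above background. Ccl2, Ccl7, Ccl8, Ccl11 and Cxcl5 are darkest red on the E5.5 EpiSC array, Cxcr4 on both treated EpiSC arrays, and crosses gather in the E3.5 EpiSC + SB431542 column.

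Cxcr4, the receptor for Cxcl12, was higher with SB431542 in both EpiSC lines, and in the E3.5 line its ratio was the largest of the 40 genes. Its probe with the highest mean signal (A_52_P585124) read -5.00 in mES cells and -5.24 after treatment, -3.32 and 0.73 in E3.5 EpiSCs, and -1.68 and 0.87 in E5.5 EpiSCs. Both treated EpiSC arrays stood above every other array, and both untreated EpiSC arrays above both mES arrays. The treated array was 16.6-fold higher in the E3.5 line and 5.84-fold higher in the E5.5 line, against 1.18-fold lower in mES cells. Fitted over the 2 EpiSC lines with limma, the difference was 3.30 ± 0.59 (SE, log2 scale) and did not pass (Benjamini-Hochberg adjusted p = 0.0794). With the line as a block, which pairs the treated with the untreated array of each line, the same value passed (adjusted p = 0.0281), as it did without the E5.5 EpiSC array (4.12, adjusted p = 0.0247).

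A second Cxcr4 probe (A_52_P565353) did not follow this pattern. It read -1.70 and -1.49 in mES cells, -0.64 and -0.72 in E3.5 EpiSCs, and -1.13 and -0.27 in E5.5 EpiSCs. On this probe the treated E3.5 EpiSC array lay slightly below the untreated one, and its fitted SB431542 value was 0.39 (adjusted p = 0.54). The mean of both probes gave 1.84 (adjusted p = 0.077). Both probes are assigned to the same RefSeq transcript, and both were well above background on all 6 arrays. The size of the Cxcr4 difference therefore rests on 1 of its probes.

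Cxcl12, the ligand of Cxcr4, was higher in untreated EpiSCs than in mES cells and lower in treated E3.5 EpiSCs. Its level was -0.40 and -0.88 in mES cells, 1.88 and -0.01 in E3.5 EpiSCs, and 1.83 and 1.35 in E5.5 EpiSCs. Every EpiSC array lay above both mES arrays. Untreated E3.5 and E5.5 EpiSCs were 4.85-fold and 4.68-fold above mES cells, and the fitted difference of EpiSCs from mES cells was 2.25 ± 0.63 (SE; limma adjusted p = 0.189), which did not pass. With SB431542 the array was 3.71-fold lower in the E3.5 line, 1.39-fold lower in the E5.5 line and 1.4-fold lower in mES cells. A dimmer probe for another Cxcl12 transcript read -3.36 and -2.99, -2.22 and -2.82, and -1.64 and -2.05 in the same order, also lowest on the mES arrays. Cxcr4 and Cxcl12 were thus both higher in untreated EpiSCs than in mES cells. In treated E3.5 EpiSCs the first Cxcr4 probe was past 2-fold higher and the brighter Cxcl12 probe past 2-fold lower. The dimmer Cxcl12 probe stayed within 2-fold there. Ackr3, the atypical receptor that removes Cxcl12, read -1.18 and -1.41, -1.50 and 1.52, and -0.21 and 0.47. It was higher with treatment by 3.02 in the E3.5 line and by 0.68 in the E5.5 line (log2 ratios).

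**Figure D2:**
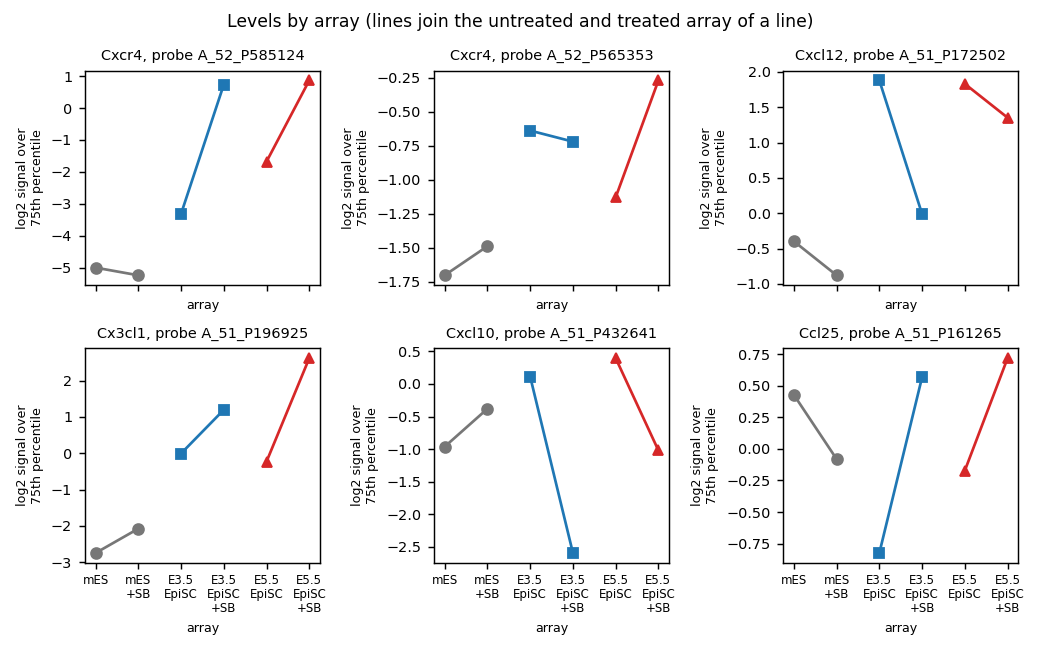
Points give the log2 signal over the array's 75th percentile (y axis, scaled to each panel) on the 6 arrays (x axis) for both Cxcr4 probes, Cxcl12, Cx3cl1, Cxcl10 and Ccl25, and lines join the untreated and treated array of a line. The first Cxcr4 probe climbs from -3.32 to 0.73 and from -1.68 to 0.87 in the EpiSC lines, while the second moves between -1.70 and -0.27 over all arrays.

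Cx3cl1, a membrane-bound ligand (fractalkine) made by neurons and endothelium among other cells, was higher in EpiSCs than in mES cells and higher again with SB431542. It read -2.75 and -2.08 in mES cells, -0.01 and 1.19 in E3.5 EpiSCs, and -0.23 and 2.62 in E5.5 EpiSCs. The 3 kinds of culture did not overlap: both mES arrays were lowest, both untreated EpiSC arrays intermediate and both treated EpiSC arrays highest. Treatment went with a 2.3-fold higher signal in the E3.5 line, 7.2-fold in the E5.5 line and 1.59-fold in mES cells. Neither the fitted EpiSC difference from mES cells (2.63 ± 0.65 SE, limma adjusted p = 0.154) nor that of SB431542 in EpiSCs (2.03 ± 0.53, adjusted p = 0.151) passed. Its receptor Cx3cr1 lay between -3.29 and -2.94 on 5 arrays and at -4.64 on the E3.5 EpiSC + SB431542 array.

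Ccl25, a ligand that draws developing T cells to the thymus and gut, differed less. It read 0.43 and -0.08 in mES cells, -0.83 and 0.57 in E3.5 EpiSCs, and -0.17 and 0.72 in E5.5 EpiSCs. Treated EpiSC arrays were highest and untreated ones lowest. A second Ccl25 probe kept treated above untreated in both lines, at -2.09 against -4.15 and -2.09 against -3.17. The fitted SB431542 value was 1.14 ± 0.33 (SE; limma adjusted p = 0.176). Ccl17, a ligand of Ccr4 that attracts T cells, read -4.08 and -3.96, -3.94 and -3.36, and -3.81 and -2.08, and stood apart only on the treated E5.5 EpiSC array, 3.32-fold over its untreated partner. Cx3cl1 and Ccl17 neighbour each other on chromosome 8, with Ccl22 on the far side of Cx3cl1 and well above background nowhere.

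By measured signal, 5 genes were at least 2-fold lower with SB431542 in both EpiSC lines: Cxcl10, Cxcl17, Ccl20, Ccl5 and Ccr10. Cxcl10, an interferon-induced ligand of Cxcr3 whose promoter window holds the interferon element, read -0.96 and -0.38 in mES cells, 0.11 and -2.60 in E3.5 EpiSCs, and 0.40 and -1.02 in E5.5 EpiSCs. The treated array was 6.54-fold lower in the E3.5 line and 2.67-fold lower in the E5.5 line, and 1.5-fold higher in mES cells. The fitted value in EpiSCs, -2.06 ± 0.58 (SE; limma adjusted p = 0.168), did not pass. Cxcl9, another interferon-induced Cxcr3 ligand that lies near Cxcl10 on chromosome 5, was well above background only on the mES and E5.5 EpiSC arrays, at -6.26 and -5.16. It was at least 2.64-fold lower in treated than in untreated E5.5 EpiSCs. In such bounds the dim array is set at its own signal or at the dimmest signal called above background on that array, whichever is higher.

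Cxcl17, a mucosal ligand, was well above background only on the untreated EpiSC arrays, at -4.25 in the E3.5 line and -4.15 in the E5.5 line. The other 4 arrays read -6.19 and -7.91 in mES cells, -7.69 in treated E3.5 EpiSCs and -6.38 in treated E5.5 EpiSCs. Treated EpiSCs were thus at least 5.69-fold lower in the E3.5 line and at least 4.70-fold lower in the E5.5 line, and untreated EpiSCs at least 3.83-fold and 4.11-fold above mES cells. For the mean of both lines the bound on the SB431542 difference was at least 5.17-fold, with limma adjusted p = 0.0767, and 0.0298 with the line as a block.

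Ccl20, the ligand of Ccr6, had the same shape on a dim signal. It read -4.36 in untreated E3.5 and -4.87 in untreated E5.5 EpiSCs, and -6.35 and -6.36 after treatment. On both mES arrays it was not well above background, at -6.29 and -6.14. The treated array was 3.99-fold lower in the E3.5 line and at least 2.80-fold lower in the E5.5 line. The fitted value was -1.74 ± 0.30 (SE; limma adjusted p = 0.0746), and adjusted p was 0.0476 with the line as a block. Untreated EpiSCs were at least 3.83-fold above mES cells in the E3.5 line and at least 2.67-fold in the E5.5 line (limma adjusted p = 0.127 over both lines). Its receptor Ccr6 varied little, between -3.38 and -2.77.

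Ccl5 (RANTES), which attracts T cells and monocytes, read -3.09 and -1.64 in mES cells, -5.10 and -7.10 in E3.5 EpiSCs, and -1.76 and -2.92 in E5.5 EpiSCs. It was lower with treatment in both EpiSC lines, by at least 3.15-fold in the E3.5 line and by 2.23-fold in the E5.5 line, and was 2.73-fold higher in treated mES cells. Ccr10, a receptor of skin-homing T cells, was raised over the other arrays on 1 array, E5.5 EpiSC, at -3.91, against -6.77 to -5.77 on the rest. With treatment it was 5.43-fold lower in the E5.5 line and, against a treated array not well above background, at least 1.98-fold lower in the E3.5 line.

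Several chemokines of monocytes and neutrophils shared a different pattern, with a higher level on the untreated E5.5 EpiSC array than on either E3.5 EpiSC array. Ccl2 (MCP-1, the main monocyte attractant) read -0.39 and 1.75 in mES cells, -0.65 and -0.11 in E3.5 EpiSCs, and 2.23 and 0.99 in E5.5 EpiSCs. Ccl7, a second monocyte attractant, read -1.52 and 0.39, -1.77 and -1.14, and 1.37 and -0.21 in the same order. For both genes the untreated E5.5 EpiSC and treated mES arrays were the highest pair. The E5.5 line exceeded the E3.5 line 7.36-fold for Ccl2 and 8.83-fold for Ccl7, and a second Ccl7 probe placed the arrays in the same way, at 0.62 against -2.14.

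Ccl8, also a monocyte attractant, read -2.66 and -2.04 in mES cells, -4.45 and -3.63 in E3.5 EpiSCs, and 0.27 and -1.37 in E5.5 EpiSCs. Ccl11 (eotaxin, which attracts eosinophils) read -3.65 and -2.95 in mES cells and -1.09 and -4.65 in E5.5 EpiSCs, and was not well above background in E3.5 EpiSCs (-6.38 and -7.10). The E5.5 line exceeded the E3.5 line 26.4-fold for Ccl8 and at least 38.8-fold for Ccl11. Ccl12 read -5.36 and -4.87, -5.22 and -5.65, and -3.82 and -4.52, a 2.64-fold excess of the E5.5 over the E3.5 line. These genes and Ccl1 adjoin one another on chromosome 11 in RefSeq order (Ccl2, Ccl7, Ccl11, Ccl12, Ccl8, Ccl1). Of these 6 neighbours 5 exceeded the E3.5 line at least 2-fold in the E5.5 line, where 6.01% of all genes did. Ccl1 did not, and was well above background only on the untreated mES (-5.87) and E3.5 EpiSC (-5.58) arrays.

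Cxcl5 and Cxcl1, which attract neutrophils, also stood higher on the untreated E5.5 EpiSC array than on either E3.5 EpiSC array. Cxcl5 read -3.28 and -2.0 in mES cells, -6.09 and -5.59 in E3.5 EpiSCs, and -0.84 and -1.91 in E5.5 EpiSCs, so that the lines did not overlap. The untreated E5.5 line was 38.1-fold over the E3.5 line. Cxcl1 read -2.95 and -0.70, -2.99 and -2.19, and -0.88 and -1.30, a 4.33-fold excess. Cxcl2 and Cxcl3, which lie with Cxcl1 and Cxcl5 in 1 run of genes on chromosome 5, were above background nowhere, and the fifth gene there, Cxcl15, read -5.08 and -5.48, -6.61 and -5.91, and -5.46 and -3.71. Cxcl15 was higher on the treated E5.5 EpiSC array by 1.75 on its brighter probe, but by normexp background correction that ratio was -0.04, and its other probe read -6.30 and -6.36 there.

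For Ccl2, Ccl7 and Cxcl5 the treated and untreated arrays differed at least 2-fold in both mES cells and E5.5 EpiSCs, in opposite directions. With SB431542, Ccl2 was 4.41-fold higher in mES cells and 2.37-fold lower in E5.5 EpiSCs. Ccl7 was 3.76-fold higher in mES cells and 2.99-fold lower in E5.5 EpiSCs. Cxcl5 was 2.43-fold higher in mES cells and 2.09-fold lower in E5.5 EpiSCs, and Cxcl1 was 4.74-fold higher in mES cells. Ccl8 and Ccl11 were 3.11-fold and 11.8-fold lower in treated E5.5 EpiSCs, with ratios of 0.62 and 0.70 (log2) in mES cells. Ccl12 and Cxcl1 had ratios of 0.48 and 2.25 (log2) in mES cells and of -0.70 and -0.42 in E5.5 EpiSCs, the latter within 2-fold. In the E3.5 line the ratios of Ccl2, Ccl7, Ccl8, Cxcl1 and Cxcl5 lay between 0.50 and 0.82 (log2). The 4 mES and E5.5 EpiSC arrays were on 1 slide, and the E3.5 EpiSC arrays were not on it. Fitted over the EpiSC lines without the line as a block, these genes gave wide errors, as for Ccl2 (-0.36 ± 1.04 SE, limma adjusted p = 0.86). That fit counts the difference between the lines as spread. With the line as a block the SE was 0.49 for Ccl2, against 1.04, and 0.63 for Ccl8, against 1.74. It was 0.71 for Ccl11, against 1.93, and 0.46 for Cxcl5, against 2.12.

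Fibroblast markers followed a similar order, and their part in these values was not tested. Of 20 markers, among them collagens and Thy1, 13 differed at least 2-fold upward and 0 downward in E5.5 over E3.5 EpiSCs (median log2 ratio 2.07), and 17 were higher and 0 lower in the E5.5 line than in mES cells (median 1.94). With SB431542, 6 were higher and 0 lower in mES cells (median 0.41), and 2 higher and 8 lower in E5.5 EpiSCs (median -0.78). In the E3.5 line 11 were higher and 1 lower with treatment (median 1.12). Of all genes, 6.01% were higher and 3.76% lower in E5.5 over E3.5 EpiSCs, and 11.9% and 10.6% in E5.5 EpiSCs over mES cells. With SB431542 these shares were 1.43% and 1.13% in mES cells, 6.59% and 8.86% in E5.5 EpiSCs, and 11.6% and 19.6% in E3.5 EpiSCs. The fibroblast markers' summed linear level was 47.1 and 70.4 in mES cells and 79.1 and 74.1 in E3.5 EpiSCs. In E5.5 EpiSCs it was 135 and 131. Acta2 and Tagln weigh heavily in these sums, and the E3.5 sum was lower with treatment although the median ratio was 1.12. In the same order Acta2 read 4.8 and 4.97, 5.29 and 4.48, and 5.31 and 5.4. Tagln read 0.04 and -0.05, 4.58 and 2.07, and 3.89 and 5.45. On each array 18 to 20 of the 20 were well above background, with Fap below on 2 arrays and Dpt on 1. Of 14 measured blood and macrophage markers, 12 to 14 were well above background on each array, at a summed level of 6.80 to 9.58. Cd3e, at 1.56 to 2.48 over the 6 arrays, weighs heavily in that sum. Ptprc, which marks all white blood cells, was not well above background on 5 of 6 arrays, and Spi1 on 4. With SB431542, 4 of the 14 were past 2-fold upward and 1 downward in E3.5 EpiSCs, 0 and 1 in E5.5 EpiSCs, and 1 and 0 in mES cells. Lyz2, a macrophage lysozyme, read -1.98 and -0.14 in mES cells, 0.46 and 1.85 in E3.5 EpiSCs, and 0.53 and -0.84 in E5.5 EpiSCs, and was singled out after its values were seen. Ccl6 had the same signs of difference as Lyz2 in all 3 SB431542 pairs, and the part of such cells in its values was not tested. Ccl2, Ccl7 and the fibroblast markers Dcn and Lum had these signs too, so the signs do not set Ccl6 and Lyz2 apart. Among the other blood and macrophage markers, Tyrobp, Itgam and Coro1a had them, whereas Csf1r, Itgb2, Cd14, Fcer1g and Laptm5 were lower in treated E3.5 EpiSCs. For 10 endothelial markers the summed level was 2.44 to 9.70 and for 10 markers of extraembryonic endoderm 1.27 to 11.5, the latter highest on the untreated E5.5 EpiSC array.

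**Figure D3:**
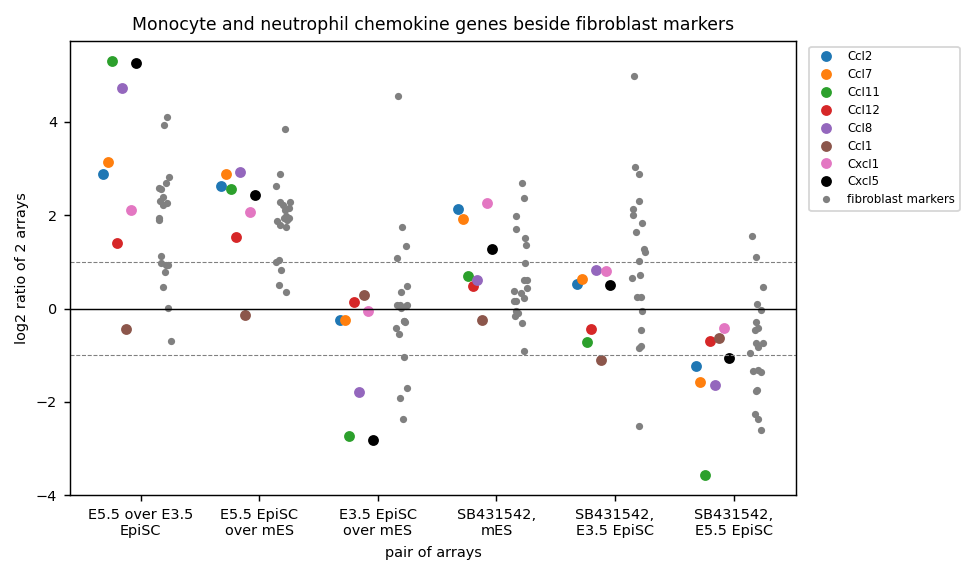
Large points give the log2 ratio (y axis) of 8 chemokine genes (Ccl2, Ccl7, Ccl11, Ccl12, Ccl8, Ccl1, Cxcl1 and Cxcl5) in 6 pairs of arrays (x axis). Small grey points give that of 20 fibroblast markers. Dashed lines mark a 2-fold difference, and horizontal scatter within a set carries no value. The 8 genes were grouped after their values were seen, and Ccl11 attracts eosinophils. In E5.5 over E3.5 EpiSCs 7 of the 8 genes lie above the upper dashed line, the pattern they were grouped for, so that count is no support. Of the 20 fibroblast markers 13 lie above it. With SB431542 in E5.5 EpiSCs 5 of the 8 genes lie below the lower line.

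The remaining ligands of inflammation varied singly. Ccl3 (MIP-1 alpha) read -3.39 and -4.47 in mES cells, -5.54 and -2.95 in E3.5 EpiSCs, and -5.84 and -5.34 in E5.5 EpiSCs. Ccl3 was the only one of the 40 genes called lower in treated mES cells (2.11-fold), and was 6.03-fold higher in treated E3.5 EpiSCs. Cxcl17 measured 3.31-fold lower in treated mES cells but was not called, since neither mES array was well above background. The next values are again those of Ccl3. For Ccl3 the ratio of untreated E5.5 EpiSCs to mES cells, -2.45 on the log2 scale, became 0.00 with normexp background correction. Ccl6 read -3.58 and -2.23, -2.03 and -0.97, and -1.42 and -2.18, so that every EpiSC array lay above both mES arrays, and its fitted EpiSC difference was 1.85 ± 0.62 (SE; limma adjusted p = 0.252). Ccl4 and Ccl9, their neighbours on chromosome 11 beside Ccl5, kept within 2-fold in all 6 pairs.

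Among homeostatic ligands, Ccl19, which guides cells into lymph nodes through Ccr7, read -1.70 and -1.49, -0.62 and -1.47, and -1.66 and -1.96. It was thus highest on the untreated E3.5 EpiSC array, on both of its probes (-3.15 against -4.18 to -3.59 on the second). Cxcl14, an epithelial ligand, was highest on the untreated E5.5 EpiSC array, reading -3.41 and -3.07, -3.05 and -2.79, and -1.70 and -3.86. Cxcl16, the membrane-bound ligand of Cxcr6, split the arrays into 2 sets, at -2.09 and -2.34 in mES cells and -2.54 in E3.5 EpiSCs, and at -4.13 in treated E3.5 EpiSCs and -3.14 and -3.61 in E5.5 EpiSCs. Ccl24, an eosinophil attractant, read -5.02 and -5.10, -4.57 and -5.70, and -5.20 and -6.19, the last not well above background.

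Besides Cxcr4, receptors read below the 75th percentile of their array on all 6 arrays. In mES cells and E5.5 EpiSCs the ratio of treated to untreated stayed within 2-fold for 11 of the 13 measured receptors in both pairs, the exceptions being Cxcr4 and Ccr10. Of all genes, 1.43% were called higher and 1.13% lower in the mES pair, and 6.59% and 8.86% in the E5.5 pair. By this count the receptors did not stand apart from all genes. On the E3.5 EpiSC + SB431542 array several receptors were at least 2-fold lower than on its partner. Ccr4 read -4.14 there against -2.94, and Cxcr2, the receptor for Cxcl1 and Cxcl5, -5.55 against -4.24. Ccr7 (-6.97 against -5.16), Cxcr5 (-8.73 against -5.75) and Ccr10 were not well above background there. In unscaled intensities Cxcr5 was 22.2 on the untreated and 4.2 on the treated array. That array has the highest 75th percentile, by which levels are divided, and the median log2 ratio of all genes well above background on all 6 arrays was -0.30 in this pair. After normexp background correction Ccr4, Ccr7, Ccr10 and Cxcr2 gave -0.93 to -0.64 and were no longer past 2-fold, and Cxcr5 stayed at -1.0.

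Counted over the 40 genes, with SB431542 in E3.5 EpiSCs 5 were higher (12.5%, against 11.6% of all 16153 genes well above background on any array) and 14 lower (35%, against 19.6%). In E5.5 EpiSCs 4 were higher (10.0%, against 6.59%) and 12 lower (30.0%, against 8.86%). In mES cells 6 were higher (15.0%, against 1.43%) and 1 lower (2.5%, against 1.13%). For the 27 well above background on all 6 arrays, the median log2 ratio was 0.26 in the E3.5 line, -0.15 in the E5.5 line and 0.12 in mES cells, against -0.30, -0.05 and 0.02 for all such genes. After normexp correction 10 chemokine genes were past 2-fold in the E3.5 line, against 19, and 3537 of all genes, against 5033.

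The E3.5 and E5.5 responses share no array. Of the 19 chemokine genes past 2-fold in the E3.5 line and the 16 in the E5.5 line, 7 were past it in both in the same direction, which is 36.8% of the first and 43.8% of the second, and 0 in opposite directions. Over all genes tested the shares were 35.3% and 71.2%, and 82 of 16153 (0.508%) were past it in opposite directions. The 7 were Cx3cl1 and Cxcr4, higher, and Ccl20, Ccl5, Ccr10, Cxcl10 and Cxcl17, lower.

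**Figure D4:**
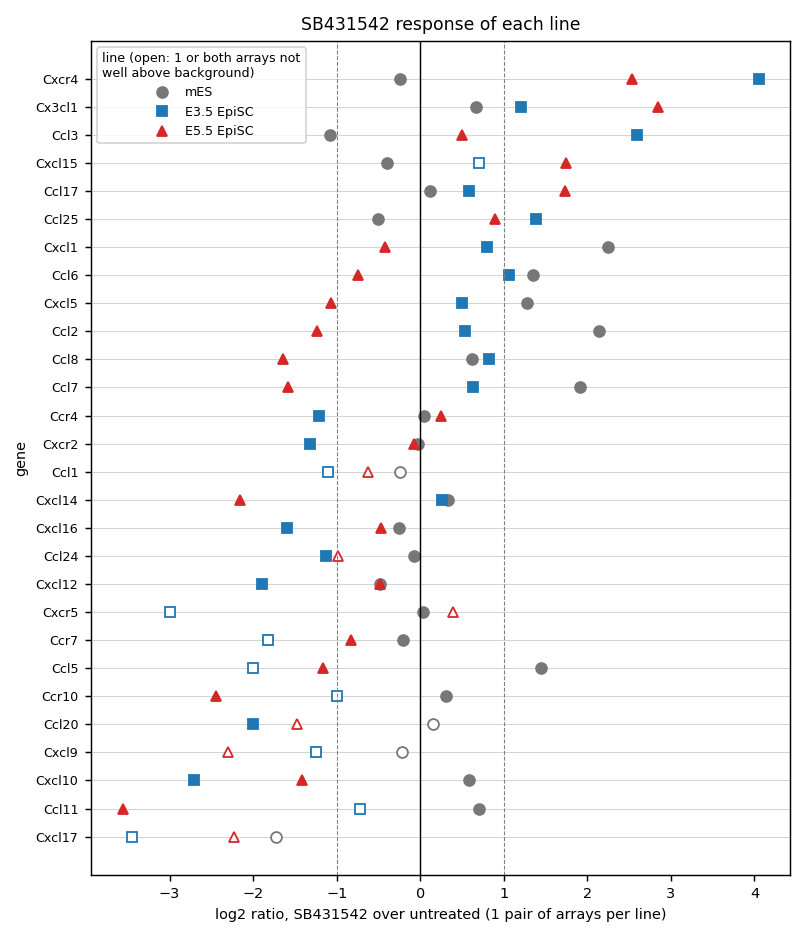
Log2 ratio of the SB431542 array to the untreated array (x axis) for chemokine genes that were past 2-fold in at least 1 of the 3 lines (rows), with circles for mES cells, squares for E3.5 EpiSCs and triangles for E5.5 EpiSCs; open symbols mark pairs with 1 or both arrays not well above background, and dashed lines mark 2-fold. Cxcr4 and Cx3cl1 lie right of the upper line in both EpiSC lines, and Ccl2 and Ccl7 lie right of it in mES cells and left of the lower line in E5.5 EpiSCs.

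Between untreated cells, 18 of the 40 genes were higher in E5.5 EpiSCs than in mES cells (45.0%, against 11.9% of all genes) and 2 were lower, Ccl3 and Cxcl16 (5.0%, against 10.6%). In E3.5 EpiSCs 8 were higher (20.0%, against 11.0%) and 8 lower (20.0%, against 12.5%). The 2 comparisons share the mES array. In E5.5 over E3.5 EpiSCs 13 were higher (32.5%, against 6.01%) and 1, Ccl19, lower (2.5%, against 3.76%). Medians over the 27 genes were 0.32, 0.06 and 0.28 in these 3 pairs, against -0.07, -0.02 and -0.01 for all such genes.

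No chemokine gene passed in the 4 limma fits, each adjusted over 16153 genes at 0.05. For EpiSCs against mES cells 0 of 40 passed and 6 (15.0%) had an unadjusted p under 0.05, where 0.384% of all genes passed as higher, 1.13% as lower, and 16.5% had such an unadjusted p. For SB431542 in EpiSCs 0 of 40 passed and 9 (22.5%) had an unadjusted p under 0.05, where 0.922% of all genes passed as higher, 1.21% as lower, and 20.0% had such an unadjusted p. With the line as a block 3 passed (Cxcr4 higher, Cxcl17 and Ccl20 lower), where 2.53% of all genes were higher and 3.23% lower, and 18 of the 40 (45.0%, against 24.1% of all genes) had an unadjusted p under 0.05. Across the 3 lines 0 of 40 passed, and no gene of all tested passed (0.0% higher, 0.0% lower). There 3 (7.5%, against 8.66% of all genes) had an unadjusted p under 0.05. For the difference of the EpiSC from the mES response, 0 of 40 and no gene of all tested passed (0.0% higher, 0.0% lower). Here 3 (7.5%, against 6.97% of all genes) had such an unadjusted p.

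Genes that act with chemokines were read from 4 lists. Of 12 measured ligands and receptors with other names 0 passed. Ackr4, a scavenging receptor for Ccl19 and Ccl25, read -4.38 and -3.68 in mES cells, -5.39 and -7.41 in E3.5 EpiSCs, and -1.27 and -7.61 in E5.5 EpiSCs, not well above background on either treated EpiSC array. Ppbp, a platelet ligand, read -5.34 and -5.39 in untreated E3.5 and E5.5 EpiSCs and was not well above background in their treated counterparts. Of 31 measured NF-kB and interferon genes, 29 were well above background on 1 or more arrays. With SB431542, 3 were past 2-fold higher and 9 lower in the E3.5 line, against 11.6% and 19.6% of all genes. In the E5.5 line 1 was higher and 4 lower, against 6.59% and 8.86%. Of these genes 0 passed without the line block. With it 2 fell with SB431542 in EpiSCs, the interferon-induced factor Irf1 (adjusted p = 0.0213; levels 3.48 to -0.87 in E3.5 and 3.84 to 0.89 in E5.5 EpiSCs) and Isg15 (adjusted p = 0.0382; 0.75 to -1.12 and 3.34 to 1.59).

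Of 29 measured genes that relay receptor signals, 0 rose with SB431542 in EpiSCs without the block. With the line as a block Rgs2 and Rgs4, which shorten G protein signals, and the kinase gene Jak2 rose in the limma fit, by 1.80, 2.89 and 1.72 (adjusted p = 0.038, 0.0229 and 0.0443). Of 20 measured genes that process or bind chemokines, Dpp4, a protease that trims Cxcl12 and Cxcl10 among others, was lower in EpiSCs than in mES cells (-6.84 ± 0.53 SE, limma adjusted p = 0.0194). It read 0.23 and 0.60 in mES cells and -7.17 to -6.29 on the EpiSC arrays. The fitted value holds signals not well above background on both E3.5 EpiSC arrays, and untreated cells were at least 97.0-fold lower in the E3.5 line and 93.1-fold lower in the E5.5 line than mES cells. With SB431542, 0 of the 20 passed without the block, and Ndst1, which modifies heparan sulfate, rose with it (1.88, adjusted p = 0.0397). Also past 2-fold in both EpiSC pairs were Sdc3, Hs6st1 and Mmp9, which did not pass. Their log2 ratios in the E3.5 and E5.5 lines were 2.12 and 1.15, 1.08 and 1.03, and -1.49 and -1.58. Of the 20, 3 were higher and 2 lower in the E3.5 line, against 11.6% and 19.6% of all genes. In the E5.5 line 4 were higher and 1 lower, against 6.59% and 8.86%.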

How the data were processed

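Per the labels, total RNA was copied into Cy3-labelled cRNA for one-colour arrays. The deposited intensity of a spot is linear and was background-subtracted by the scanner program, Agilent Feature Extraction. Its version is 10.7.1.1 in the headers and 9.1 in the submitters' processing notes. The deposited yes-or-no flags and other columns are from the same program, and a deposited value table held equal intensities at 45018 of 45018 rows. Spots marked as controls or outliers were dropped, and repeats were averaged. Values are log2 intensity minus the array's 75th percentile. Accessions of 24373 of 41174 probes matched RefSeq (GRCm38.p6), and 16801 probes are unnamed. The probe with the highest mean signal stood for a gene, and the 16153 of 17015 genes well above background on at least 1 array were tested.

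Tests used limma 3.58.1 in R 4.3.3 with Benjamini-Hochberg adjustment at 0.05 and were checked on simulated data. A fit of 4 arms over 6 arrays treated both EpiSC lines as members of 1 class (2 residual degrees of freedom), and assumed that the lone mES arrays vary like them. The comparison across lines fitted line plus treatment. Treated and untreated arrays are paired because they come from the same line, so block values are given where they change a call. The labels do not say whether cultures were separate, and the p-values therefore reflect the spread among these arrays, which may be technical. In the 4-arm fit each mES arm holds 1 array, so a gene's own spread comes from E3.5 against E5.5 EpiSC arrays. It thus holds the difference between the lines, which cannot be told apart from slide. Each single pair of arrays has no test. Named with values were chemokine genes past 2-fold in any pair, and listed genes that passed or were past 2-fold in both EpiSC pairs. Genes and lists were chosen with earlier results of these data known. Results for 2 genes that this rule names are not reported here or plotted. The headers' build differs from GRCm38.p6, so coordinates are given only for the promoter table's own windows.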

Additional observations from a re-analysis of the deposited data

Results flagged for a closer look

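The SB431542 response of 5 genes was past 2-fold in opposite directions in mES cells and in an EpiSC line. Ccl2 had a log2 ratio of 2.14 in mES cells and -1.24 in E5.5 EpiSCs. Ccl7 had 1.91 in mES cells and -1.58 in E5.5 EpiSCs. Cxcl5 had 1.28 in mES cells and -1.07 in E5.5 EpiSCs. Ccl5 had 1.45 in mES cells, -2.0 in E3.5 EpiSCs, where the treated array was not well above background, and -1.16 in E5.5 EpiSCs. Ccl3 went the other way, at -1.08 in mES cells and 2.59 in E3.5 EpiSCs. Each value is 1 pair of arrays, so the difference between a single EpiSC line and mES cells was not tested. The fit of the mean EpiSC response against the mES response was made without the line as a block. It gave limma adjusted p of 0.862 for Ccl2, 0.863 for Ccl7, 0.936 for Cxcl5, 0.874 for Ccl5 and 0.841 for Ccl3.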

How the results depend on the processing

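For SB431542 in EpiSCs the count of chemokine genes that passed limma was 0. It was 1 with normexp background correction (Cxcr4, adjusted p = 0.0494), 1 with dim signals raised to a floor (Cxcl17, 0.0292), 1 among genes above background on all 6 arrays (Cxcr4, 0.0499), and 3 with the line as a replicate block. Leaving out 1 array at a time gave 0 to 1 there, and 0 to 3 across the 3 lines, where leaving out either mES array leaves the blocked EpiSC fit. For EpiSCs against mES cells and for the EpiSC minus mES response the count was 0 under all alternatives run, as it was across the 3 lines on slide 1 alone. Normexp took the E3.5 SB431542 pair from 19 to 10 genes past 2-fold (all genes, 5033 to 3537) and the E3.5 over mES pair from 16 to 8 (3786 to 2493). It turned Cxcl15 in the E5.5 SB431542 pair from 1.75 to -0.04, and Ccl3 in E5.5 over mES from -2.45 to 0.00. It adds a constant to dim signals, so they differ less by construction. Of the other values of single genes, 237 fitted values kept direction and call, 9 passed only under an alternative, 421 pair ratios moved little and 37 moved. Choosing the Cxcr4 probe by mean log2 signal, an alternative chosen after seeing the data, gave 0.39.

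Over all genes, 245 passed for EpiSCs against mES cells, 427 with the floor and 0 without either treated EpiSC array. For SB431542 in EpiSCs 345 passed, 546 among genes above background on all 6 arrays, 931 with the block, 202 without the untreated E3.5 EpiSC array and 0 without either treated EpiSC array. Across the 3 lines 0 passed, 931 without either mES array and 3 without either E5.5 EpiSC array. At an unadjusted p under 0.05 there were 1399 across the 3 lines and 1126 for the EpiSC minus mES response. Normexp was run on median spot signals because the files hold no mean signals. The number of arrays, 1 per group, limits the precision of all values, and genes near background are the least certain.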
